A study of Mus musculus with 2 samples.

Results

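The cells described here were the cycling B lineage cells of mouse spleen, 168 of the 25289 cell barcodes that passed the filters, 104 in an RPA1 conditional knockout (CKO) library and 64 in a wild-type (WT) library. They were chosen by unique molecular identifiers (UMIs, each standing for 1 captured transcript). A member had at least 2 UMIs of Cd79a, the signalling chain of the B cell receptor, and none of the T cell genes Cd3d and Cd3e. It also had a UMI in at least 3 of 6 proliferation genes (Mki67, Top2a, Ube2c, Birc5, Cdk1 and Ccna2) and none in Rag1, Rag2, Igll1 or Dntt, genes of B cell precursors. The last clause left out a further 19 cycling CKO cells and 4 cycling WT cells. The members were thus picked by measured values, so their proliferation genes and Cd79a are a description and carry no finding.

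Immune cells from spleen were profiled by 10x Genomics 3′ single-cell RNA sequencing in 1 CKO library and 1 WT library, both from C57BL/6 mice, in a study of RPA1 in T cells. Rpa1 encodes the large subunit of replication protein A, the trimer that coats single-stranded DNA. The CKO group carries a conditional deletion of this gene, and the WT group does not. The Cre driver, the ages, any treatment, and whether a library pooled several animals are not given in the sources used here, so the cells in which the gene was to be deleted cannot be stated. With 1 library per genotype there is no replicate check, no comparison between genotypes could be tested, and a difference between the genotypes cannot be told apart from a difference between the libraries. Every interval below is an exact 95% interval that covers counting error only. CPM is the standard scaling of a gene's summed counts by all UMIs of the cells named, a ratio is CKO CPM over WT CPM unless stated otherwise, and CPM are compared between libraries for the same gene, never between genes.

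B cells divide at several points of their life. Large precursors cycle in bone marrow, mature cells divide after antigen or mitogen contact, and the germinal centre, the site where B cells mutate and select their antibody genes, holds some of the fastest dividing cells of the body. Plasmablasts, the dividing stage that secretes antibody, come from both the germinal centre and outside it. During S phase a dividing cell expresses replication and histone genes, and towards mitosis it expresses spindle, kinetochore and cytokinesis genes. RPA binds the single strands that replication exposes and recruits ATR, the kinase that slows the cycle when forks stall.

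The proliferation genes split the B lineage cells clearly at the top of the range and less so at the threshold. Of the 9715 CKO and 7139 WT B lineage cells, 8990 and 6553 had no UMI of any of the 6 genes, and these serve below as the non-cycling cells. Another 621 CKO and 522 WT cells had a UMI in 1 or 2 of them and belong to neither group. All 6 genes were found in 54 CKO and 33 WT members. Mki67, the marker read by Ki-67 staining, had a UMI in 104 of 104 CKO members and 62 of 64 WT members, with a median of 18 UMIs in each library, and Top2a, the topoisomerase that untangles replicated DNA, in 96 and 61. The median member had 31.5 Cd79a UMIs in CKO and 32 in WT, a gene the rule used. Of B lineage genes the rule did not use, Cd79b had a UMI in 102 of 104 CKO and 64 of 64 WT members, Ms4a1 (CD20) in 100 and 63, and Pax5, the factor of B cell identity, in 96 and 57.

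**Figure D1:**
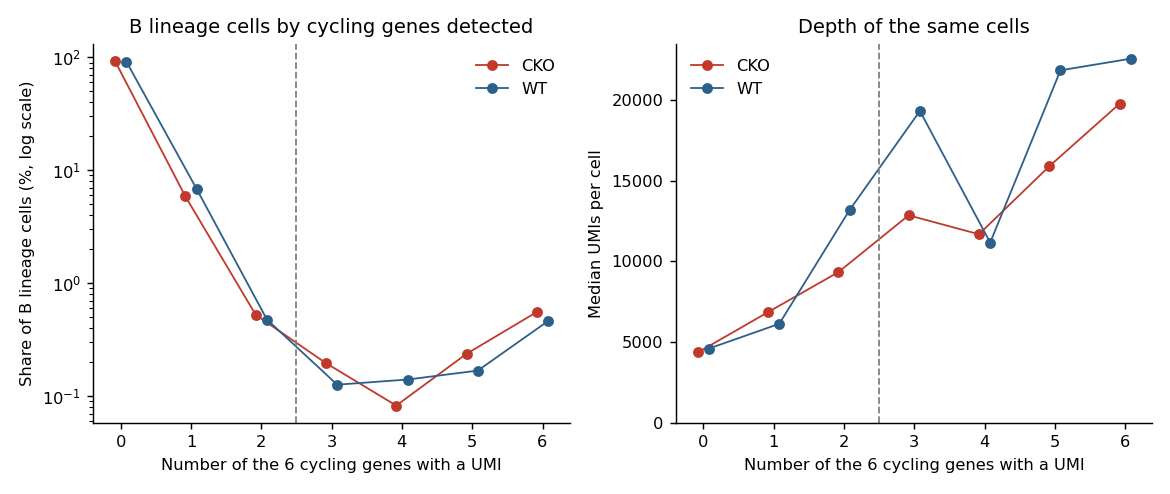
Share of B lineage cells (left, percent, log scale) and median UMIs per cell (right) by the number of the 6 proliferation genes with a UMI, for CKO (red) and WT (blue); the dashed line is the threshold of 3 genes. The share falls from 0 to 2 genes and is higher at 6 genes, 54 CKO and 33 WT cells, than just above the line, while depth is greatest at 6 genes.

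Just outside the threshold, 51 CKO and 34 WT cells had exactly 2 of the 6 genes, with medians of 7 and 7.5 replication list UMIs and of 4 UMIs each for the mitosis list. Just inside it, 19 CKO and 9 WT cells had exactly 3, with medians of 35 and 127 replication UMIs and of 14 and 31 mitosis UMIs. Cells with all 6 had medians of 164 and 134 mitosis UMIs. Depth moved along with these counts. Members had a median of 15412.5 UMIs in CKO, with a lowest of 1194 and a highest of 51721, and of 21365 in WT, with a lowest of 3648 and a highest of 49279. Non-cycling cells had medians of 4353.5 and 4600. Members also had more genes detected, medians of 3930 in CKO and 4146.5 in WT, against 1716 and 1745 in non-cycling cells. Because shallow cells can miss a gene, the main shares below are also given after each cell was thinned at random to the same number of UMIs.

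Rpa1 itself was detected in the members of both libraries at like levels. It had 68.4 CPM in CKO cycling cells and 58.4 CPM in WT cycling cells, a ratio of 1.17 (0.880 to 1.57), and a UMI in 59 of 104 CKO members (56.7%) and 36 of 64 WT members (56.2%). The 3′ tags read the end of the transcript, and the deleted exons are not named in the sources used here, so this level is no check of the deletion. Within each library Rpa1 was higher in cycling than in non-cycling cells, 2.13-fold (1.77 to 2.55) in CKO and 1.69-fold (1.33 to 2.12) in WT. The libraries had 76910129 and 84240951 UMIs in all. B lineage cells made up 77.0% of the filtered CKO barcodes and 56.3% of the WT barcodes, with 724 CKO and 3381 WT T cells beside them, so every share of all cells depends on how many T cells were captured. The libraries had 36 barcodes in common, none of them of a cycling cell.

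Cycling cells were a similar share of the B lineage in the 2 libraries. They made up 1.07% of B lineage cells in CKO (0.875 to 1.30%) and 0.896% in WT (0.691 to 1.14%), a ratio of 1.19 whose interval, 0.866 to 1.66, includes 1. After thinning to 2000 UMIs, 51 of 9477 CKO cells (0.538%) and 31 of 7131 WT cells (0.435%) still passed the rule, a ratio of 1.24 (0.777 to 2.0). Of all filtered barcodes the members were 0.825% in CKO (0.674 to 0.998%) and 0.505% in WT (0.389 to 0.644%), a ratio of 1.63 (1.19 to 2.27). That larger ratio used a denominator in which T cells differed, and among barcodes without Cd3d and Cd3e it was 1.16 (0.840 to 1.61). Among T cells, 9 of 724 in CKO (1.24%) and 37 of 3381 in WT (1.09%) passed the same proliferation gate.

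Within each library, the members stood apart from non-cycling B cells by the genes of division, as the rule requires, and by lower levels of many genes of the resting cell. These values describe the split and are no test of it, since both sides come from the same library and were separated on related genes. Of 11989 genes compared, 17.7% were over 1.5-fold higher and 25.5% over 1.5-fold lower in cycling cells in CKO, and 20.4% and 32.7% in WT. Beside these backgrounds, 40 of 40 mitosis genes in CKO and 39 of 40 in WT were over 1.5-fold higher, with median log2 ratios of 5.10 and 4.68. Of 36 replication genes, 35 in CKO and 34 in WT were over 1.5-fold higher, with medians of 2.86 and 2.94, and the 10 histone genes had medians of 5.63 and 5.32. Enzymes of nucleotide synthesis were over 1.5-fold higher for 14 of 19 in CKO and 18 of 19 in WT. Glycolysis genes had medians of 0.51 in CKO and 0.85 in WT.

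Genes of the resting B cell were lower in the members of both libraries. The background was 25.5% of all genes over 1.5-fold lower in CKO and 32.7% in WT. Of 10 follicular genes, 9 in CKO and 10 in WT were over 1.5-fold lower in cycling than in non-cycling cells, with median log2 ratios of -1.25 in CKO and -1.89 in WT. All 10 genes of the MHC class II pathway, which presents antigen to helper T cells, were over 1.5-fold lower in both, with medians of -1.01 in CKO and -1.31 in WT. B cell receptor signalling genes were over 1.5-fold lower for 7 of 15 in CKO and 9 of 15 in WT. Type I interferon genes were so for 12 of 24 and 19 of 24, beside the same 25.5% and 32.7% of all genes. Outside the lists, the genes furthest below their non-cycling level included Kdm5b, a histone demethylase, at 0.103 of it in CKO and 0.0698 in WT. Btg1, an antiproliferative factor, stood at 0.350 and 0.300, Tsc22d3, the glucocorticoid-induced leucine zipper, at 0.288 and 0.174, and Zfp318, needed for IgD expression, at 0.295 and 0.249. Gpr183, the receptor that guides B cells to oxysterols at the follicle edge, stood at 0.295 and 0.243.

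Genes on no list that were furthest above their non-cycling level were also of the division cycle. Pclaf, a PCNA-binding factor, was 996-fold higher in CKO and 841-fold higher in WT. Esco2, which acetylates cohesin in S phase, was 463-fold and 311-fold higher, and Neil3, a glycosylase of replication-coupled repair, 446-fold and 196-fold. Cdkn3, a phosphatase that acts on cyclin-dependent kinases, was 194-fold and 209-fold higher, and Ckap2l, a spindle protein, 174-fold and 161-fold. Such large ratios rest on very low non-cycling levels.

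Replication and mitosis genes are commonly controlled by different short promoter elements, and the promoters of 4 members of these lists are printed to show them. RefSeq windows of 300 bases on GRCm38.p6, 250 before to 50 after the start of the gene, were searched on both strands. The searched elements were TTTGAA, the core of the CHR element of late cell cycle genes, TTTGGCGC or TTTCCCGC for E2F sites, and CCAAT for NF-Y sites. Capitals mark TTTGAA in Plk1, the polo-like kinase of mitotic entry, and Aurka, the centrosome kinase. In Mcm6 and Mcm5, subunits of the replicative helicase, capitals mark the E2F letters. Each is written 5′ to 3′ on the strand of its gene.
Plk1, chr7:122159185-122159484, plus strand: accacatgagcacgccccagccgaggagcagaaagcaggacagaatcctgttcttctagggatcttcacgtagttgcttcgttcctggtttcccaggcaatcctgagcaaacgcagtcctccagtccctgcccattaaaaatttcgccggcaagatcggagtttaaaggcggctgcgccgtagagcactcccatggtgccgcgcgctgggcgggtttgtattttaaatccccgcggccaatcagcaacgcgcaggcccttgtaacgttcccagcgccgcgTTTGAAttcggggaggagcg
Aurka, chr2:172370521-172370820, minus strand: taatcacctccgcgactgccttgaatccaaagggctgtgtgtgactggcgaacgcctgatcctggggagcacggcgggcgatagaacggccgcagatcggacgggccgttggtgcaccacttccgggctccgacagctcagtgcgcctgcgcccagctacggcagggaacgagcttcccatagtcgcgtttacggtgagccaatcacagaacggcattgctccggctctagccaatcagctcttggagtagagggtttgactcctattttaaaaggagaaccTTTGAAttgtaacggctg
Mcm6, chr1:128359656-128359955, minus strand: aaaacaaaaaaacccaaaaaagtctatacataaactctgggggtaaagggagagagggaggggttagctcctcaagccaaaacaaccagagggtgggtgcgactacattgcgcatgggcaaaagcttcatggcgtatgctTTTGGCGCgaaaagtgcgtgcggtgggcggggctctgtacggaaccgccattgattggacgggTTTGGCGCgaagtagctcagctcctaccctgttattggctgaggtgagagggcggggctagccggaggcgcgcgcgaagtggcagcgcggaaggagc
Mcm5, chr8:75109259-75109558, plus strand: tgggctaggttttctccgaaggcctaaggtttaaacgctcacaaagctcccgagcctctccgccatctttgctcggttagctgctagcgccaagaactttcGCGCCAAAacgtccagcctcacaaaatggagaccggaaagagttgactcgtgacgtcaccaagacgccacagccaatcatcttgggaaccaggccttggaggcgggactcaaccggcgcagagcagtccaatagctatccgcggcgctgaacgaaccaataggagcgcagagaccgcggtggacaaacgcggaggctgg
The Plk1 and Aurka windows each held 1 CHR match, at offsets of 30 and 32 bases after the start, and no E2F match. The Mcm6 window held 2 E2F matches, at offsets of -110 and -47 bases from the start, the Mcm5 window held 1, and neither held a CHR match. Over the lists, 33 of 40 mitosis genes and 31 of 36 replication genes had a window in the table. TTTGAA was present for 24 of the 33 mitosis genes (72.7%) and 4 of the 31 replication genes (12.9%), against 20.2% of all 27025 genes. An E2F match was present for 0 of 33 and 12 of 31 (38.7%), against 1.80% of all genes, and no gene of either list held both. CCAAT was present for 25 of 33 (75.8%) and 19 of 31 (61.3%), against 41.1% of all genes. A match is a description of letters and shows no binding.

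The 4 printed genes had modest differences between the genotypes. Plk1 had 77.9 CPM in CKO members and 73.0 CPM in WT members, a ratio of 1.07 (0.823 to 1.39), and Aurka 49.5 and 40.2 CPM, a ratio of 1.23 (0.874 to 1.75). Mcm6 had 157 CPM in CKO and 234 CPM in WT, a ratio of 0.674 (0.574 to 0.791), and Mcm5 had 137 and 184 CPM, a ratio of 0.744 (0.623 to 0.888). The intervals left out 1 for both helicase subunits, lower in CKO, and included it for both kinases.

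Each member was placed in the cycle by its own replication and mitosis UMIs. The median CKO member had 68 replication list UMIs and 85 mitosis list UMIs, and the median WT member had 78.5 and 75. Mitosis UMIs outnumbered replication UMIs in 65 of 104 CKO members (62.5%, 52.5 to 71.8%) and 32 of 64 WT members (50%, 37.2 to 62.8%), a ratio of 1.25 whose interval of 0.807 to 1.97 includes 1. Thinned to 5000 UMIs, the counts were 62 of 102 and 31 of 63. No shift along the cycle was therefore detectable by this count at this number of cells. In the summed counts below, 36 of 40 mitosis genes but 8 of 36 replication genes lay above a ratio of 1. Over all 8604 genes measured, 4911 did.

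**Figure D2:**
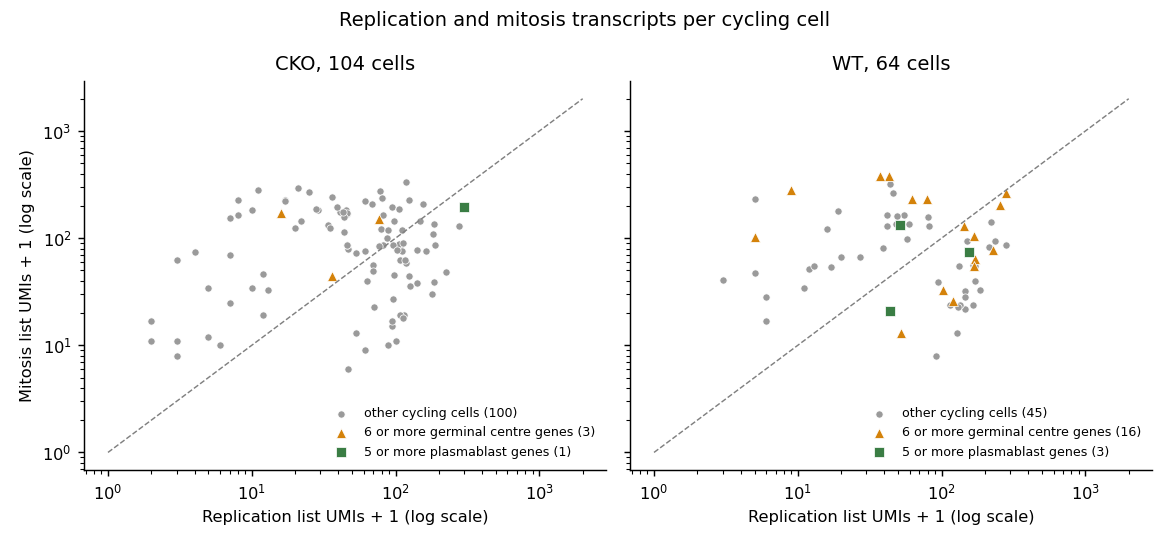
Replication list UMIs (horizontal, plus 1, log scale) against mitosis list UMIs (vertical, plus 1, log scale) for each cycling cell, CKO left and WT right; the dashed line marks equal counts, and triangles and squares mark cells with at least 6 germinal centre genes or at least 5 plasmablast genes. In both panels cells lie on either side of the line, 65 of 104 CKO cells and 32 of 64 WT cells above it, and 3 CKO and 16 WT cells are triangles.

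The cycling cells of the 2 libraries differed in how many were germinal centre cells. The 10 genes of the germinal centre list were counted in each cell, and cells fell into 2 separate ranges, 0 to 3 genes or 6 to 10 genes, with none at 4 or 5. The upper range held 3 of 104 CKO members (2.88%, 0.599 to 8.20%) and 16 of 64 WT members (25.0%, 15.02 to 37.4%), a ratio of 0.115 (0.0215 to 0.403). As a share of B lineage cells these were 0.0309% in CKO and 0.224% in WT, a ratio of 0.138 (0.0257 to 0.481). Thinned to 5000 UMIs, 1 of 102 CKO and 7 of 63 WT members had 6 or more genes, a ratio of 0.0882 (0.00196 to 0.687). With all cells thinned to 2000 UMIs, 0 of 51 and 3 of 31 did, a ratio of 0 whose interval of 0 to 1.47 includes 1. The limit of 6 genes was chosen after the counts per cell had been seen. It was passed by no non-cycling CKO cell and 1 of 6553 non-cycling WT cells, and by no T cell of either library, whose median depths were 6143 and 6829 UMIs. Counting cells at any level of the proliferation gate, 4 CKO and 19 WT B lineage cells passed it, of which 3 and 16 were cycling. How far mice of 1 genotype differ in this share is not shown by 1 library each.

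**Figure D3:**
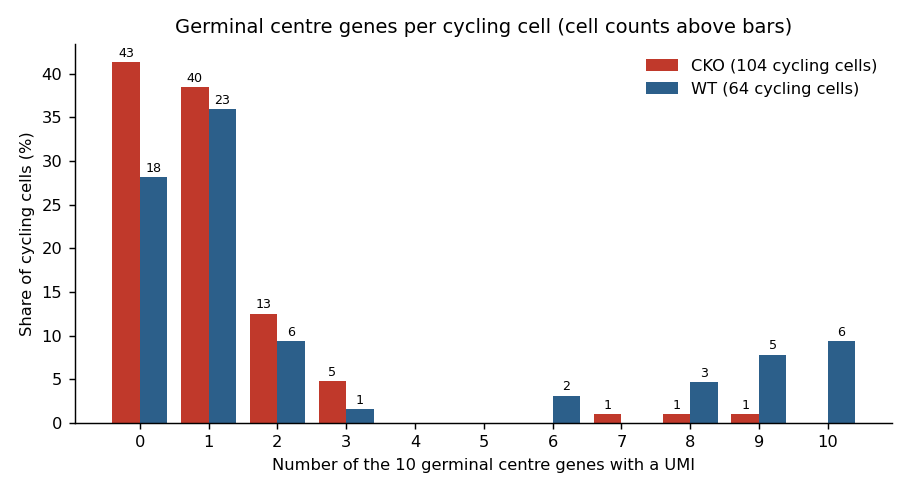
Share of cycling cells (percent) by the number of the 10 germinal centre genes with a UMI, CKO in red and WT in blue, with cell counts above the bars. No cell had 4 or 5 genes, and 3 of 104 CKO cells and 16 of 64 WT cells had 6 or more.

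A lower limit of 2 of the 10 genes gave a smaller difference, with 21 of 104 CKO members (20.2%) and 23 of 64 WT members (35.9%), a ratio of 0.562 (0.296 to 1.06). That limit also let in 2.76% of CKO and 2.69% of WT T cells, and 2.40% and 2.43% of non-cycling B cells, which are shallower than the members. With the members thinned to 5000 UMIs, it was passed by 6 of 102 CKO and 16 of 63 WT cells, a ratio of 0.232 (0.0742 to 0.623). With all cells thinned to 2000 UMIs the ratio was 0.122 (0.0130 to 0.570), on 2 of 51 and 10 of 31 cells.

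All 10 germinal centre genes were over 1.5-fold lower in the CKO members taken as a whole. Over the 8604 genes measured, 7.45% were that much lower and 13.1% that much higher. The upper range above was set by the same 10 genes in the same cells. The summed values therefore carry the cell count again and are no separate support for it. Without germinal centre and plasmablast cells, 5 of these genes were measured, with a median log2 ratio of 0.51. In all members the median log2 ratio of the 10 was -2.19, with median bounds of -3.01 and -1.60, against 0.07 over all genes. S1pr2, the receptor that keeps B cells in the germinal centre, had 3.69 CPM in CKO and 27.0 CPM in WT, a ratio of 0.136. The signalling adaptor Gcsam had 2.63 and 43.1 CPM, and the nuclear GTPase Nuggc 5.26 and 66.4 CPM. The transcription factor Mef2b had 18.4 and 81.8 CPM, and the death receptor Fas 11.6 and 44.5 CPM. Bcl6, the master repressor of the programme, showed the smallest difference, with 14.7 CPM in CKO and 31.4 CPM in WT, a ratio of 0.470. In non-cycling B cells the list median was -0.12, and none of 9 measured genes was over 1.5-fold lower, where 2.94% of 13243 genes were.

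The 3 CKO cells in the upper range lay within the WT range in most counts. They had 18, 37 and 41 UMIs over the 10 genes, and the 16 WT cells had 16 to 80 with a median of 39. Jchain, the joining chain of polymeric antibody, had 11, 12 and 14 UMIs in the CKO cells and 1 to 52 in the WT cells with a median of 11. Ighd was at a median of 0 in both. Marginal zone list UMIs numbered 3, 8 and 38 in the CKO cells and 1 to 13 in the WT cells, against medians of 39 in the other 100 CKO members and 40 in the other 45 WT members, those outside the upper germinal centre range and below 5 plasmablast genes. Mitosis UMIs outnumbered replication UMIs in 3 of the 3 CKO cells and 6 of the 16 WT cells. Scrublet, a doublet caller, marked 1 of these cells in each library.

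Antibody-secreting and class-switched cells were few in both libraries, and their counts were lower among the CKO members. At least 3 of 7 plasmablast genes were found in 3 of 104 CKO members (2.88%) and 9 of 64 WT members (14.1%), a ratio of 0.205 (0.0357 to 0.822), and in 0.367% of CKO and 0.305% of WT non-cycling cells. Thinned to 5000 UMIs, the counts were 2 of 102 and 3 of 63, a ratio of 0.412 whose interval of 0.0344 to 3.59 includes 1, and thinned to 2000 UMIs no member of either library passed. With no cell filter the ratio was 0.315 (0.0844 to 1.01). A difference in plasmablasts was thus not detectable at matched depth. At least 5 were found in 1 CKO cell and 3 WT cells, and this stricter limit was also set after the counts had been seen. The CKO cell had 783 Jchain and 1591 Ighm UMIs and no switched heavy chain. Of the WT cells, which had 533, 748 and 1384 Jchain UMIs, the last carried 5689 switched heavy chain UMIs and no Ighm. Members with a Jchain UMI numbered 5 of 104 in CKO and 21 of 64 in WT. The T cells, a background of free RNA, had shares of 0.414% in CKO and 2.19% in WT. These Jchain members included all 3 CKO and all 16 WT cells of the upper germinal centre range, with 11 to 14 and 1 to 52 UMIs. Some of the 9 WT cells with at least 3 plasmablast genes were also in that range. The Jchain count thus largely repeats the germinal centre count and is no separate sign of fewer secreting cells. Switched heavy chain UMIs exceeded Ighm and Ighd together in 0 of 104 CKO members, which by the limit of 3 cells for a count of 0 allows a share of up to 2.88% (exact upper bound 3.48%), and in 5 of 64 WT members (7.81%, 2.59 to 17.3%). Thinned to 5000 UMIs, these were 0 of 102 and 4 of 63. Of those WT cells 4 were in the upper germinal centre range, and the remaining one was the plasmablast just described.

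The plasmablast list followed, with 6 of 8 measured genes over 1.5-fold lower in CKO, beside 7.45% of all genes. Its median log2 ratio was -1.06, and -0.20 without the germinal centre and plasmablast cells, which were picked by genes of these lists. Immunoglobulin constant genes were over 1.5-fold lower for 6 of 10 measured, beside the same 7.45%, with a median of -1.13. Igkc, the kappa light chain, had 7722 CPM in CKO and 22825 CPM in WT, a ratio of 0.338, but a ratio of 1.09 once germinal centre and plasmablast cells were left out. Ighm, the IgM heavy chain, had 3691 and 3928 CPM. In WT, 99.8% of the Ighg2c counts came from 1 cell. Reads of the Ighg and Iglc genes can be split among near-identical copies, so single members of those families are uncertain.

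The other cycling cells numbered 100 in CKO and 45 in WT. They were 1.03% of CKO and 0.630% of WT B lineage cells, a ratio of 1.63 (1.14 to 2.38). Of all filtered barcodes they were 0.793% and 0.355%, a ratio of 2.23 (1.56 to 3.25). Both ratios follow from leaving out cells by limits set after the counts had been seen, and neither was computed at matched depth. Over all members the ratio among B lineage cells was 1.19, with an interval of 0.866 to 1.66 that includes 1. In the other cycling cells, marginal zone list UMIs ranged from 2 to 191 with a median of 39 in CKO. They ranged from 2 to 131 with a median of 40 in WT. Follicular list UMIs ranged from 1 to 78 with a median of 18.5 in CKO, and from 2 to 62 with a median of 25 in WT. The libraries overlapped on both lists. Lambda light chain UMIs outnumbered kappa in 28 of all 104 CKO members (26.9%) and 22 of all 64 WT members (34.4%). Of non-cycling cells, 19.9% and 19.0% did so. Median kappa and lambda UMIs were 90.5 and 60.5 in CKO members and 111 and 67 in WT members. Most members carried both chains, so the count does not mark cells that use lambda.

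Marginal zone genes were higher in the CKO members as a whole, with a median log2 ratio of 0.63. Of the 10 genes, 6 were over 1.5-fold higher, beside 13.1% of all genes. Among the other cycling cells the median was 0.15, with 4 of 10 over 1.5-fold higher beside 11.3% of all genes. Cr2, the complement receptor that marks marginal zone cells, had 177 CPM in CKO and 98.6 CPM in WT, a ratio of 1.80 (1.47 to 2.21), and a ratio of 1.72 among the other cycling cells. Tm6sf1 had a ratio of 2.23, and of 1.59 among the other cycling cells, and Plac8 had a ratio of 1.47. Follicular genes had a median of 0.33 over all members and -0.03 among the other cycling cells. Immature B genes were over 1.5-fold higher for 5 of 7 measured, against 13.1% of all genes, with a median of 0.77. Among the other cycling cells 1 of 7 was, against 11.3% of all genes, with a median of 0.34. Myb, a transcription factor of progenitors and of dividing cells, had 81.1 CPM in CKO and 46.0 CPM in WT, a ratio of 1.76 (1.31 to 2.40). The immature marker Cd93 had a ratio of 1.05 and Vpreb3, a surrogate light chain relative, of 1.21. At least 2 of 10 immature genes were found in 63.5% of CKO and 57.8% of WT members, but also in 61.5% and 76.5% of T cells, so this gate was not specific to B cells.

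**Figure D4:**
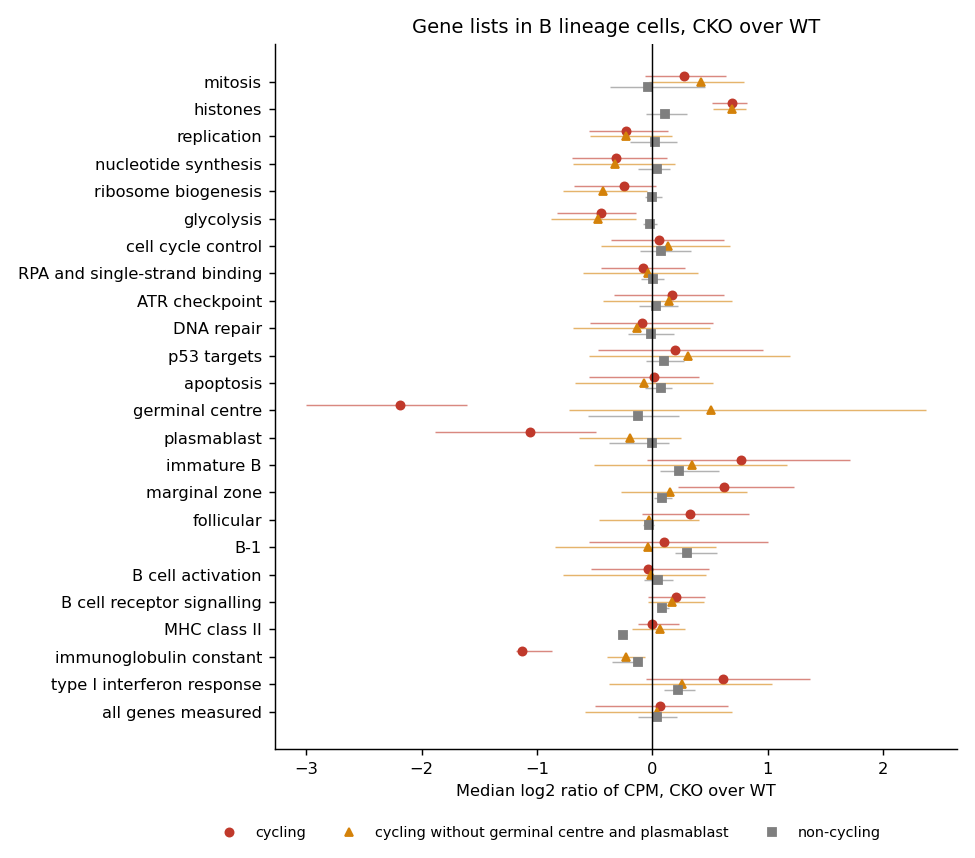
Median log2 ratio of CPM, CKO over WT, for each gene list in all cycling cells (red circles), in cycling cells without germinal centre and plasmablast cells (orange triangles) and in non-cycling B lineage cells (grey squares); lines join the medians of the members' lower and upper 95% counting bounds. The germinal centre list lies at -2.19 in all cycling cells and at 0.51 without those cells, whereas the histone and glycolysis lists lie at 0.69 and -0.44 and move little.

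Of the histone, mitosis and replication lists, the histone list was the one with a share beyond 1.5-fold well above that of all genes. Mitosis and replication genes differed less, mostly in opposite directions. Of 40 mitosis genes, 36 lay above a ratio of 1, beside 4911 of all 8604 genes. Of the 40, 3 were over 1.5-fold higher, a share below the 13.1% of all genes. Their median log2 ratio was 0.27, with median bounds of -0.06 and 0.64. Among the other cycling cells 40 of 40 lay above 1, beside 4428 of 8236 genes, with a median of 0.42. Of these 40, 5 were over 1.5-fold higher, beside 11.3% of all genes. Bub1b, a kinase-like protein of the spindle checkpoint, had 129 CPM in CKO and 84.7 CPM in WT, a ratio of 1.52 (1.22 to 1.92). The microtubule depolymerase Kif2c had a ratio of 1.68 (1.14 to 2.52), Kif11, the motor that separates spindle poles, 1.46, and the centromeric histone Cenpa 1.43. Ccnb1, the mitotic cyclin, went the other way at 0.840. In non-cycling cells the mitosis median was -0.03.

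Pttg1, which encodes securin, the inhibitor of the enzyme that cleaves cohesin, stood apart from the rest of the mitosis list. It had 96.3 CPM in CKO members and 23.4 CPM in WT members, a ratio of 4.12 (2.82 to 6.21), with a UMI in 63 of 104 and 23 of 64 cells. Among the other cycling cells the ratio was 5.64. In non-cycling B cells it was below 1, at 0.642. Within the libraries, Pttg1 was 4.52 times its non-cycling level in CKO cycling cells and 0.703 of it in WT cycling cells.

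Replication-dependent histone genes were over 1.5-fold higher in CKO for 7 of 10, beside 13.1% of all genes. Their median log2 ratio was 0.69 in all members and in the other cycling cells. In non-cycling cells the median was 0.11, and 1 of 10 was that much higher beside 4.75% of all genes. Hist1h2ap had 1210.3 CPM in CKO and 518 CPM in WT, a ratio of 2.34 (2.15 to 2.55). The linker histone Hist1h1b had 2233 and 1366 CPM, a ratio of 1.64, and Hist1h4d had 719 and 402 CPM, a ratio of 1.79. These messages mostly lack a poly(A) tail, which the library chemistry captures, and near-identical cluster members can share reads, so single genes are uncertain. Weighting every cell equally instead of summing lowered the list median to 0.46.

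Replication genes had a median log2 ratio of -0.23, with median bounds of -0.55 and 0.14. Of 36, 8 lay above a ratio of 1, beside 4911 of all 8604 genes. Among the other cycling cells 8 of 35 did, beside 4428 of 8236 genes. Over 1.5-fold, 1 of the 36 was higher, beside 13.1% of all genes, and 3 were lower, beside 7.45%. Beside Mcm6 and Mcm5, Cdc6, which loads the helicase onto origins, had a ratio of 0.568 (0.406 to 0.792), Orc1 of the origin recognition complex 0.590, and Gins1 of the active helicase 0.659. Pole, the leading strand polymerase, was higher at 1.65 (1.14 to 2.43), and Pcna, the sliding clamp, had 380.1 CPM in CKO and 423 CPM in WT, a ratio of 0.899. With cells weighted equally the median was -0.08. Nucleotide synthesis genes had a median of -0.31, with 4 of 19 over 1.5-fold lower and none higher, beside 7.45% and 13.1% of all genes.

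Genes of the RPA trimer and of the response to stalled forks showed no common direction. The background for the counts that follow is 13.1% of all genes over 1.5-fold higher and 7.45% lower. Of 7 genes of RPA and other single-strand binding proteins, 1 was over 1.5-fold higher and none lower, with a median log2 ratio of -0.08. Rpa2, the middle subunit, had 55.8 CPM in CKO and 77.4 CPM in WT, a ratio of 0.721 (0.546 to 0.953), and Rpa3, the small subunit, had 108 and 110.2 CPM, a ratio of 0.979. Of 16 ATR checkpoint genes, 3 were over 1.5-fold higher and 1 lower, with a median of 0.17. Chek1, the kinase that ATR activates, had a ratio of 0.625 (0.423 to 0.921), Tipin of the fork protection complex 0.683, and Clspn, the adaptor between ATR and Chek1, 1.11. Of 29 repair genes, 4 were over 1.5-fold higher and 3 lower, with a median of -0.09. Of 12 measured p53 targets, 2 were over 1.5-fold higher and none lower, with a median of 0.20. Cdkn1a, the p21 inhibitor, had 10.5 CPM in CKO and 9.49 CPM in WT. Apoptosis genes had a median of 0.02. Several of these shares lay above the background, among them the ATR and p53 genes higher in CKO. Each rested on 4 or fewer genes, too few to set a list apart.

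Among regulators of the cycle, 5 of 20 were over 1.5-fold higher and 2 lower, beside 13.1% and 7.45% of all genes, with a median log2 ratio of 0.06. Among the other cycling cells 2 of 20 were higher and 2 lower, beside 11.3% and 7.24%. Cdkn1b, the p27 inhibitor, had 126 CPM in CKO and 67.2 CPM in WT, a ratio of 1.87 (1.47 to 2.41). Rb1, the retinoblastoma protein, had 95.8 and 49.6 CPM, a ratio of 1.93, and Cdk6, a kinase of G1, a ratio of 1.62. E2f1, an activator of S phase genes, was lower at 0.607. Ccnd1, cyclin D1, had 25.8 and 2.19 CPM, but its UMIs came from 7 CKO and 3 WT cells.

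Glycolysis genes were lower throughout in the CKO members. None of the 14 lay above a ratio of 1, where 4911 of all 8604 genes did. Of the 14, 4 were over 1.5-fold lower, beside 7.45% of all genes. The median log2 ratio was -0.44, with -0.47 among the other cycling cells and -0.02 in non-cycling cells. Ldha, which makes lactate, had 223 CPM in CKO and 334 CPM in WT, a ratio of 0.668 (0.584 to 0.764). The hexokinase Hk2 had a ratio of 0.499, Pgam1, the mutase of the lower pathway, 0.617, and the isomerase Tpi1 0.665. Gapdh had 1092 and 1435 CPM, a ratio of 0.762. Ribosome biogenesis genes lay lower too, with a median of -0.24. Above a ratio of 1 lay 1 of 20, beside the same 4911 of 8604. Of the 20, 3 were over 1.5-fold lower, beside 7.45% of all genes. Among the other cycling cells the median was -0.43, with 5 of 20 over 1.5-fold lower beside 7.24% of all genes. The list medians for B cell activation, -0.04, B cell receptor signalling, 0.20, MHC class II, 0.00, and B-1 genes, 0.10, differed little from the 0.07 of all genes.

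Type I interferon genes were over 1.5-fold higher in CKO for 9 of the 17 measured and lower for none, beside 13.1% and 7.45% of all genes, with a median log2 ratio of 0.61 and median bounds of -0.05 and 1.37. Among the other cycling cells 4 of 17 were over 1.5-fold higher, beside 11.3% of all genes, with a median of 0.26, and in non-cycling cells the median was 0.22. Isg15, a ubiquitin-like modifier, had 62.6 CPM in CKO and 22.6 CPM in WT, a ratio of 2.77 (1.85 to 4.25). Ifi27l2a had 1319 and 854 CPM, a ratio of 1.54, and Trim30a a ratio of 1.60. For Rsad2, the antiviral enzyme viperin, the ratio was 10.5, but 69.0% of its CKO counts came from 1 cell.

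Over all 8604 genes with at least 20 summed counts, 1125 were over 1.5-fold higher and 641 over 1.5-fold lower in CKO members. Genes were then ranked by how far the nearer bound of the ratio lay from 1. Of the 12 furthest above, Id2, an inhibitor of helix-loop-helix factors, came first, with 42.6 CPM in CKO and 7.30 CPM in WT, a ratio of 5.84 (3.02 to 12.6). Without the members that carried markers of other cells its ratio was 2.95 (1.37 to 7.04), without Scrublet doublets 3.30, and with a gate of 4 of the 6 proliferation genes 3.21. Aldh7a1, an aldehyde dehydrogenase, had 47.9 and 10.95 CPM, a ratio of 4.37 (2.52 to 8.14), and was 10.0-fold higher in non-cycling CKO cells, so it was not particular to the cycling cells. Irf2bpl had a ratio of 4.64, Tfdp2, a partner of E2F factors, 3.66, and Ube2d1, a ubiquitin-conjugating enzyme, 2.72. Hcst, an adaptor of activating receptors of lymphocytes, had 3.37, but 2.05 (0.947 to 4.81) without the members that carried markers of other cells and 1.37 (0.918 to 2.06) with a gate of 2 of the 6 genes. Add1, a membrane skeleton protein, had 2.22 and Sdc4, a heparan sulfate proteoglycan, 2.12. Pttg1, Hist1h2ap, Hist1h4h and Tm6sf1 completed this set.

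Of the 12 furthest below, Basp1, a membrane-bound signalling protein, came first, with 8.95 CPM in CKO and 167 CPM in WT, a ratio of 0.0535 (0.0307 to 0.0876). Another 6 were germinal centre genes, among them Neil1, a DNA glycosylase, which had 8.95 and 47.5 CPM. Ada, adenosine deaminase, had 15.3 and 71.5 CPM, a ratio of 0.213. Hmces, which shields abasic sites in single-stranded DNA, had 37.9 and 135 CPM, a ratio of 0.281, and Eaf2, an elongation factor partner, 49.0 and 153 CPM, a ratio of 0.319. Scimp, an adaptor in antigen presentation, had a ratio of 0.192 and Smagp of 0.244. Among the other cycling cells, several of these ratios lay above 1, with Basp1 at 1.23, Ada at 1.15, Hmces at 1.39 and Eaf2 at 1.12. The intervals of all of these included 1.

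Some members of both libraries carried transcripts of other cells. At least 2 UMIs of the erythroid, T cell, NK cell or myeloid list were found in 26 of 104 CKO members (25.0%) and 10 of 64 WT members (15.6%), a ratio of 1.60 whose interval of 0.747 to 3.72 includes 1, against 9.19% and 7.87% of the shallower non-cycling cells. By list, the cells numbered 6 in CKO and 1 in WT for erythroid, 3 and 3 for T cell, 6 and 2 for NK cell, and 21 and 5 for myeloid genes. One CKO member had 12080 haemoglobin UMIs, and 2 CKO members had 3998 and 5661 UMIs of the myeloid list, against 6624 in 1 WT member. Scrublet marked 8 CKO members (7.69%) and 12 WT members (18.8%), and no member was removed for it. Genes for which over 30% of the counts of the higher library came from 1 cell were set apart. Those far higher in CKO were haemoglobin and other red cell genes (Hbb-bs, Hba-a1, Slc4a1, Car2) and killer cell genes (Gzma, Ccl5, Ncr1, Nkg7). Those far lower were granule genes (Prtn3, Ctsg, Mpo, Ms4a3) and genes of the secreting cells (Ighg1, Ighg2c, Jchain, Igkc, Fkbp11). Without the members that carried at least 2 such UMIs, the list medians were 0.63 for histones, 0.22 for mitosis, -0.25 for replication, -0.57 for glycolysis and -2.33 for germinal centre genes. They were -1.53 for plasmablast, 0.49 for interferon, 0.56 for immature, 0.70 for marginal zone and 0.42 for B-1 genes. Basp1 was then at a ratio of 0.0196, S1pr2 at 0.0489 and Eaf2 at 0.130.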

How the data were processed

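The deposited values were raw UMI counts per gene and barcode, filtered 10x matrices of 1 CKO and 1 WT spleen library. The submitters' processing notes name mm10, Cell Ranger 5.0.0 and Seurat 4.0.3, whereas Cell Ranger 6.0.2 stands in the deposited matrix, per the file headers. Barcodes with 200 to 6000 genes and under 10% mitochondrial UMIs were kept, and 3 CKO and 1 WT barcodes that otherwise met the rule were left out for more than 6000 genes, with 1 and 3 left out for mitochondrial UMIs.

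The members and the gene lists were chosen with earlier results of these data known. Counts were summed per library, and genes with at least 20 summed counts entered list medians of log2 CPM ratios (pseudocount 1 CPM). Intervals were exact 95% (binomial, Poisson, and conditional binomial for ratios). Named genes were members of the lists, plus the 12 higher and 12 lower genes with at least 20 CPM and 20 counts in a library whose interval bound lay furthest from 1. The 13 genes of the rule were left out, as were V, D and J segments and mitochondrial, ribosomal protein, sex-linked and unnamed genes. Genes with over 30% of counts from 1 cell were named apart. For cycling over non-cycling cells, the 15 furthest each way on no list were eligible. Of the list symbols, 1 (Mx2) had no entry, and Aldoa has more than 1 feature. Scrublet, run through scanpy 1.11.5 with an expected 0.8% doublets per 1000 barcodes, removed no cell from the main values. Scripts used Python 3.11.15, numpy 2.4.6, scipy 1.17.1 and pandas 2.3.3 and were tested on simulated data. Some single genes are not reported here.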

Additional observations from a re-analysis of the deposited data

Results flagged for a closer look

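For 7 genes of the lists, cycling cells stood above non-cycling cells in one library and below them in the other, each side with an interval that left out 1. The difference between the libraries was not tested, since each genotype is 1 library. Pttg1 was at 4.52 times its non-cycling level in CKO and 0.703 in WT, with 63 and 23 cycling cells carrying it. Egr2, an immediate early transcription factor of B cell activation, was at 0.308 in CKO and 2.17 in WT, on UMIs in 2 and 7 cycling cells. Igkc was at 0.718 in CKO and 1.95 in WT, where 42.7% of its counts came from 1 cell. The other 4 were Car2, at 7.77 in CKO and 0.478 in WT, and the NK cell genes Nkg7, at 1.29 and 0.220, Ncr1, at 2.59 and 0, and Klre1, at 1.46 and 0. Of their CKO counts, 1 cell gave 80.2% for Car2, 59.2% for Nkg7, 50% for Ncr1 and 48.6% for Klre1.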

How the results depend on the processing

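No paired analysis was possible because each genotype has 1 library, and no replicate could be left out. The limits of 6 germinal centre genes and 5 plasmablast genes, thinning members to 5000 UMIs, leaving out those cells, and naming single-cell genes apart were chosen after seeing the data. Over all alternatives, 349 main values stayed near the reported one, 28 moved and 1 turned round. With no cell filter, the median log2 ratio was 0.52 for histones, -0.039 for myeloid and 0.13 for mitochondrial genes. With a gate of 2 of the 6 genes, it was -1.25 for immunoglobulin constant and 0.21 for NK cell genes, and with a gate of 4, -0.99 for myeloid genes. With Cd79a at 4 or more, NK cell genes were at 2.45. With Scrublet doublets out, plasmablast genes were at -2.14 and myeloid genes at 0.42. With barcodes carrying other markers out, mitochondrial genes were at 0.28 and the share of all filtered barcodes was 1.12-fold, as that removes other cells from the denominator. With cells weighted equally, histones were at 0.46, immunoglobulin constant genes at -0.83, MHC class II at -0.17 and myeloid genes at 0.30. With a minimum of 10 counts, immunoglobulin constant genes were at -0.70, and with a pseudocount of 5 CPM, NK cell genes at 2.49 and erythroid genes at 2.69. Thinned to 2000 UMIs, ratios were 0.122 for the germinal centre gate and 1.82 for the immature gate. For the 6-gene limit the ratio was then 0, on 0 of 51 and 3 of 31 cells. Thinned to 5000, the ratio was 0.232 for the germinal centre gate.

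Without germinal centre and plasmablast cells, the germinal centre list turned round to 0.51, which follows from leaving out cells picked by those genes. That value rested on 5 measured genes, with median bounds of -0.73 and 2.38. The other lists were then at -0.23 for immunoglobulin constant, -0.20 for plasmablast, 0.15 for marginal zone, -0.52 for myeloid, 0.090 for mitochondrial and -0.10 for ribosomal protein genes. Ratios that turned round in the same way were Basp1 1.23, Neil1 1.48, Ada 1.15, Hmces 1.39, Eaf2 1.12, Bcl6 1.48, Mybl1 3.12, Fas 1.48 and Rgs13 2.81. Over the germinal centre list, the other cycling cells had a median of 1 UMI per cell in both libraries. The highest count in a cell was 17 in CKO and 3 in WT, so ratios of these genes can rest on few cells. The intervals were 0.201 to 12.9 for Basp1, 0.369 to 8.48 for Neil1 and 0.415 to 3.65 for Ada. They were 0.801 to 2.54 for Hmces and 0.531 to 2.52 for Eaf2, and all of these included 1. At 104 and 64 cells, ratios of shares carry wide intervals, and 3 CKO germinal centre cells set the precision of that result.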
